A study of Mus musculus with 14 samples.

Results

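The report describes 9 complement genes that the liver makes for the plasma, namely C8a, C8b, C9, Hc, C6, C3, C4b, Cfb and Mbl2. They were chosen by name, with earlier results of these data known. All 9 were found among the 22564 gene entries of the expression tables. Their m6A peaks were taken by gene name from 6 peak lists. The data come from C57BL/6 mice aged 8 weeks, in which m6A-seq and RNA-seq were used to compare Mettl3-cKO animals (Alb-Cre Mettl3 fl/fl, where Cre under the albumin promoter removes part of the m6A writer gene Mettl3 in hepatocytes) with WT animals, written Alb-cre Mettl3-/- in the methods, which is read here as Alb-Cre without a floxed allele. Primary hepatocytes of male mice gave 1 cKO and 1 WT input library, each with an m6A immunoprecipitate (IP). Liver of male mice gave 2 cKO and 2 WT inputs (replicates 2 and 3), each with an IP, and liver of female mice gave 1 cKO and 1 WT RNA-seq library without IP. The labels do not say whether a library holds 1 animal or several, so a p-value measures only the spread between these libraries.

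Complement is a cascade of plasma proteins in which the classical, lectin and alternative routes converge on cleavage of C3. Cleaved C3 leads to a C5 convertase, and the C5b fragment then gathers C6, C7, C8 and several copies of C9 into the membrane attack complex, a pore in the target membrane. Hepatocytes are the main source of most of these proteins, while C1q comes mostly from macrophages. METTL3 is the catalytic subunit of the complex that methylates adenosine in mRNA, and GGAC is the core of the sequence word it favours.

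The coding transcripts of the 9 genes lie on 5 chromosomes (GRCm38, GENCODE M21). C8b (chr4:104766317-104804548, plus strand) and C8a (chr4:104815683-104876383, minus strand) are neighbours. C9 (chr15:6445327-6498751, plus) and C6 (chr15:4731656-4814967, plus) share chromosome 15, and C3 (chr17:57203970-57228136, minus), Cfb (chr17:34856384-34862514, minus) and C4b (chr17:34728380-34743882, minus) share chromosome 17. Hc is at chr2:34983331-35061438 on the minus strand and Mbl2 at chr19:30232942-30239687 on the plus strand.

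Mettl3 was at 26.3 and 14.7 FPKM (fragments per kilobase of transcript, scaled to library size) in male cKO livers, against 8.43 and 10.6 FPKM in male WT livers, a log2 difference of 0.99 (SE 0.42, limma adjusted p = 0.197). It was at 2.91 FPKM in cKO and 3.44 FPKM in WT hepatocytes, and at 72.3 FPKM in the female liver titled cKO and 29.7 FPKM in the one titled WT. Reads from exons outside the deleted part can count in these values, and no exon-level value was used. Why Mettl3 was higher in the livers labelled cKO was not tested, and these values do not bear the labels out. For the WT library of female liver the title and the genotype tag disagree, the tag giving cKO, and its title was followed here. Throughout, cKO and WT are the labels of the libraries. The estimated number of fragments on genes was 1737991 to 10904541 a library, lowest in WT hepatocytes.

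Cell type markers differed between the genotypes in all 3 tables. The 11 measured Kupffer cell and macrophage markers summed to 16.5 FPKM in cKO hepatocytes and 653 FPKM in WT hepatocytes, and the 9 sinusoidal endothelium markers to 28.2 FPKM in cKO hepatocytes and 271 FPKM in WT hepatocytes. Hepatocyte markers other than albumin summed to 10400 FPKM in cKO hepatocytes and 4499 FPKM in WT hepatocytes. In male liver the macrophage sum was 414 and 619 FPKM in cKO and 221 and 190 FPKM in WT, the cholangiocyte sum 243 and 168 FPKM in cKO and 56.0 and 18.0 FPKM in WT, and the hepatocyte sum 18980 and 19760 FPKM in cKO and 12610 and 17120 FPKM in WT. The hepatocyte markers were not uniform in male liver, with 3 of 9 having both cKO libraries higher, 4 both lower and a median log2 difference of -0.24. Ahsg was at 8615 and 10321 FPKM in cKO and 3346 and 5439 FPKM in WT, so that its mean alone differed by more than that of the sum, while albumin, which the sum leaves out, was at 6112 and 11761 FPKM in cKO livers and 17598 and 25024 FPKM in WT livers. In female liver the macrophage sum was 1283 FPKM in cKO and 396 FPKM in WT, and the hepatocyte sum 24590 FPKM in cKO and 22470 FPKM in WT, although the median log2 difference of the hepatocyte markers was -0.49 there. Ahsg was at 13263 FPKM in female cKO liver and 7119 FPKM in female WT liver. Albumin was listed at 12968 FPKM in female cKO liver and at 0 in female WT liver, so no fold was taken from it. In a tissue sample, fewer cells of a type and less RNA per cell cannot be told apart. The part of these cell type differences in the values below was not tested.

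**Figure D1:**
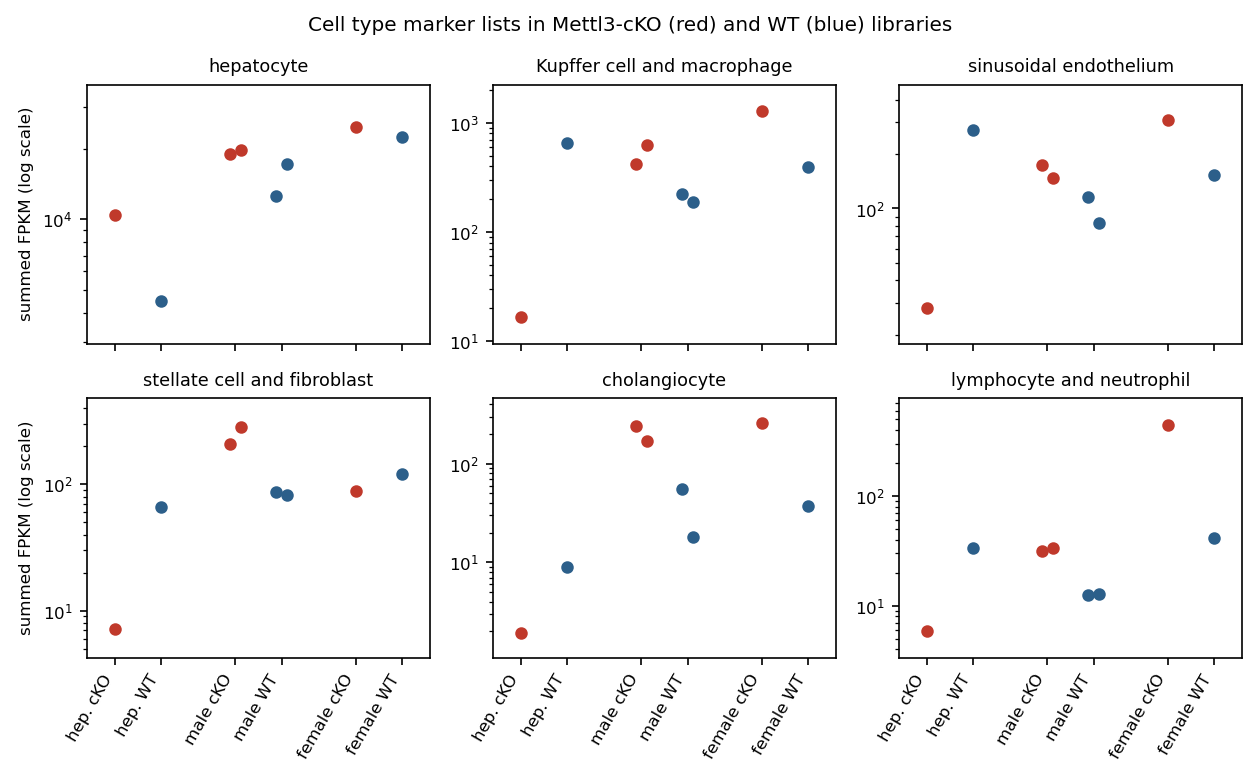
Summed FPKM (log scale) of the 6 marker lists, albumin left out, in hepatocyte, male liver and female liver libraries, with cKO in red and WT in blue and 1 point a library. The non-parenchymal lists are lowest in cKO hepatocytes, for example 16.5 FPKM for macrophages against 653 FPKM in WT hepatocytes, while in male liver macrophage and cholangiocyte sums are higher in both cKO libraries than in both WT libraries.

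In male liver, 5 of the 9 components were lower in cKO than in WT past the threshold, and all 5 belong to the terminal pathway. These were C8a, C8b, C9, Hc and C6. The 4 that did not pass were C3, C4b, Cfb and Mbl2, which act before C5. The split between terminal and early components was not itself tested, and it rests on Hc (limma adjusted p = 0.0483) and Mbl2 (limma adjusted p = 0.0534), which lie on either side of the threshold. Mbl2 passed under 6 of the 13 alternatives. Over all 10937 genes tested, 5.18% were called, 1.5% lower and 3.68% higher. Because the 9 were chosen with earlier results of these data known, shares over all genes beside them are a description and not a test. Each of the 9 components had both cKO libraries below both WT libraries, which held for 11.7% of all genes, while 44.8% of all genes and 0 of the 9 had both cKO libraries above both WT libraries. The median log2 difference was -1.63 over the 9 components and 0.42 over all genes tested, so that the components lay below a background that itself was shifted upward. Scaling each library by its median ratio moved the median of all genes to -0.03 and left all 9 differences negative. Median-ratio scaling also changed the balance of calls over all genes to 162 higher and 291 lower, against 403 higher and 164 lower as deposited.

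C8a encodes the alpha chain of C8, which inserts into the membrane before C9 does. It was at 1.69 and 0.854 FPKM in cKO livers, against 240 and 175 FPKM in WT livers. The libraries did not overlap, and the WT mean was 163 times the cKO mean. The log2 difference was -6.53 on the log2(FPKM + 1) scale (SE 0.39, limma adjusted p = 0.000897), lower in 2 of 2 cKO livers. In the deposited fragment counts, scaled by the authors, C8a had 24 and 17 in cKO livers and 4517 and 3578 in WT livers, so the cKO values rest on few fragments.

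C8b encodes the beta chain, which binds C8 to the growing complex. Its transcript lies 11134 bases from that of C8a on chromosome 4, on the opposite strand. C8b was at 21.7 and 33.4 FPKM in cKO livers, against 139 and 136 FPKM in WT livers. This was a smaller difference than that of its neighbour, at -2.31 on the log2 scale (SE 0.35, limma adjusted p = 0.0213). C8g, the gamma chain, which is not one of the 9, was at 5.98 and 20.1 FPKM in cKO livers and at 43.2 and 54.7 FPKM in WT livers and did not pass (log2 difference -2.03, limma adjusted p = 0.079).

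C9 encodes the protein that polymerises into the pore. It was at 32.6 and 18.2 FPKM in cKO livers, against 154 and 191 FPKM in WT livers, with a log2 difference of -2.77 (SE 0.39, limma adjusted p = 0.0175). C6, which binds C5b first, was at 8.27 and 9.25 FPKM in cKO livers, against 53.9 and 88.3 FPKM in WT livers, with a log2 difference of -2.85 (SE 0.38, limma adjusted p = 0.016). The FPKM of C9 and C6 in cKO replicate 2 stood for fewer fragments than in WT replicate 2, with 0.555 and 0.558 times as many scaled fragments per FPKM. In scaled fragments C9 was at 193 and 197 in cKO livers and 1645 and 1992 in WT livers, and C6 was at 72 and 148 in cKO livers and 845 and 1320 in WT livers, so neither gene's groups overlapped on either scale. The C6 entry covers a merged locus, and its reads may include those of other transcripts there.

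Hc encodes C5, the protein whose cleavage starts the terminal pathway. It was at 98.4 and 104 FPKM in cKO livers, against 286 and 258 FPKM in WT livers. The libraries of each genotype lay close together, and the log2 difference was -1.42 (SE 0.31, limma adjusted p = 0.0483). This call stood nearest to the threshold, and it was lost with a pseudocount of 0.1 FPKM (adjusted p = 0.0552) or 5 FPKM (adjusted p = 0.0572), with no filter on low values (adjusted p = 0.11), and with any 1 library left out (adjusted p 0.114 to 0.402), while the limma fits under the other alternatives gave 0.0116 to 0.0446.

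Among the early components, Mbl2, a lectin that recognises microbial sugars and starts the lectin route, had the largest difference. It was at 29.5 and 46.5 FPKM in cKO livers, against 104 and 131 FPKM in WT livers, and just missed the threshold (log2 difference -1.63, SE 0.37, limma adjusted p = 0.0534). C3, the hub of the cascade and the most abundant of the 9, was at 1343 and 1638 FPKM in cKO livers, against 2242 and 2509 FPKM in WT livers (log2 difference -0.68, SE 0.30, limma adjusted p = 0.218). In scaled fragments C3 was at 37258 and 37298 in cKO livers and 43070 and 49919 in WT livers, where the difference was smaller at -0.32 (limma adjusted p = 0.524). C4b, cleaved by the classical and lectin proteases, was at 71.5 and 121 FPKM in cKO livers, against 144 and 164 FPKM in WT livers (limma adjusted p = 0.272). C4b has a near-identical copy, C4a, with which it may share reads. Cfb, which supplies the protease of the alternative route's convertase, was at 156 and 182 FPKM in cKO livers, against 261 and 251 FPKM in WT livers (limma adjusted p = 0.268). The Cfb entry spans the neighbouring C2 locus, so the genes may share reads.

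Few genes of any kind could be called with 3 male libraries. Leaving out cKO replicate 2, cKO replicate 3, WT replicate 2 or WT replicate 3 left 0 of the 9 past the threshold in limma, with 6, 7, 6 and 6 at an unadjusted p under 0.05 in that order. Over all genes 0, 0, 2 and 0 were called, and 24.1%, 26.9%, 11.9% and 13.0% had an unadjusted p under 0.05. C8a had an adjusted p between 0.107 and 0.234 and a log2 difference between -6.80 and -6.26 in those fits. The log2 difference was between -2.61 and -2.01 for C8b, between -3.17 and -2.36 for C9, between -1.49 and -1.34 for Hc and between -3.20 and -2.49 for C6. Without a filter on low values only C8a stayed past the threshold (adjusted p = 0.0365). Mbl2 joined the 5 with a mean of at least 5 FPKM (limma adjusted p = 0.0441), median-ratio scaling (0.024), the mitochondrial genes left out (0.044), the replicate block (0.0208), the female livers added (0.0109) and estimated fragments in place of FPKM (0.0148), the last an alternative chosen after seeing the data.

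The levels also ordered the components differently by genotype. In male WT livers the order of mean FPKM was C3, Hc, Cfb, C8a, C9, C4b, C8b, Mbl2 and C6. Hc and Cfb overlapped there, as did C8a with C9 and C9 with C4b, and the other neighbours in that order did not. In male cKO livers the order was C3, Cfb, Hc, C4b, Mbl2, C8b, C9, C6 and C8a. Hc and C4b, Mbl2 and C8b, and C8b and C9 overlapped in cKO livers. C8a thus ranked 4 of 9 in WT livers and 9 of 9 in cKO livers, while C3 ranked 1 in both.

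**Figure D2:**
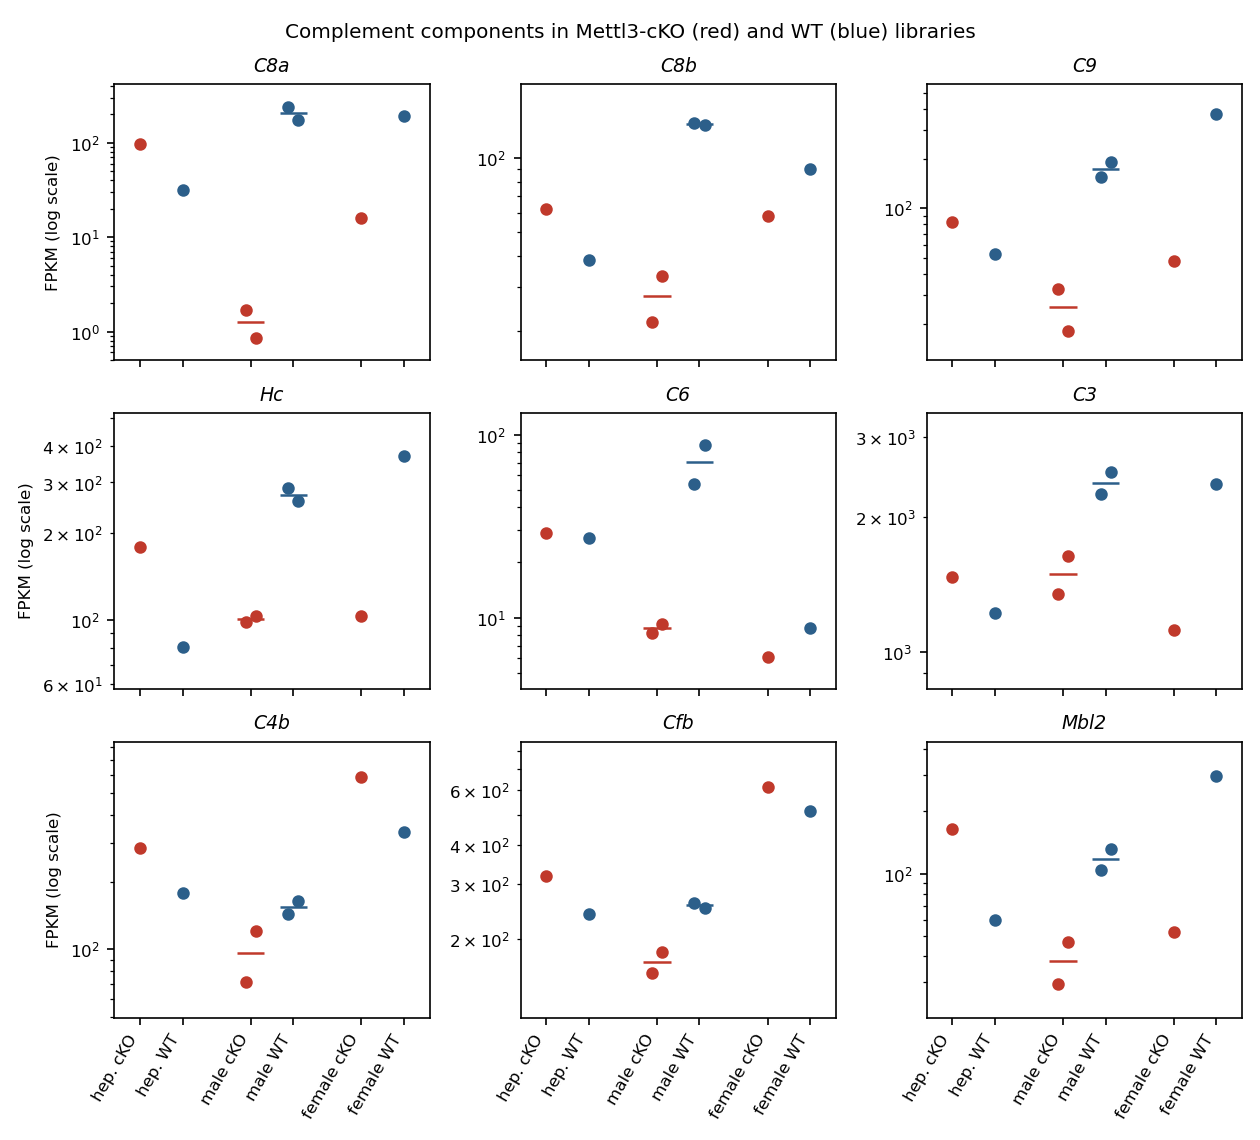
FPKM of each component (log scale) in hepatocyte (hep.), male liver and female liver libraries, with cKO in red and WT in blue, 1 point a library and a bar at the mean of the 2 male libraries. In male liver both cKO points lie below both WT points in all 9 panels, widest for C8a (1.69 and 0.854 against 240 and 175 FPKM), and in hepatocytes the cKO point is the higher one.

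In hepatocytes the FPKM of each of the 9 components was higher in cKO than in WT, which is the other direction from male liver. With 1 library a genotype there is no test. C8a was at 95.6 FPKM in cKO hepatocytes and 31.2 FPKM in WT hepatocytes, a ratio of 3.06. Mbl2 was at 165 FPKM in cKO and 59.4 FPKM in WT hepatocytes, and Hc at 179 FPKM in cKO and 81.0 FPKM in WT hepatocytes. These 3 of the 9 were at least 2-fold higher on the log2(FPKM + 1) scale, as were 23.6% of all genes, while 0 of the 9 were at least 2-fold lower, against 13.2% of all genes. C4b was at 283 FPKM in cKO and 179 FPKM in WT hepatocytes, C8b at 62.2 FPKM in cKO and 38.5 FPKM in WT, and C9 at 82.3 FPKM in cKO and 52.8 FPKM in WT. The smallest differences were those of Cfb (319 FPKM in cKO and 241 FPKM in WT), C3 (1468 FPKM in cKO and 1220 FPKM in WT) and C6 (29.0 FPKM in cKO and 27.1 FPKM in WT).

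The hepatocyte directions depended on the scale. The median log2 difference was 0.66 over the 9 components and 0.41 over all 9596 genes at 1 FPKM or more. With median-ratio scaling C6 (-0.27) and C3 (-0.11) fell below 0. With the mitochondrial genes left out of the library total, the components' median was -0.19 and only C8a (0.76), Hc (0.30) and Mbl2 (0.62) stayed above 0. The directions also rest on the labels of the 2 input libraries, which the IP lists described further on do not match in their cell type markers. The macrophage and endothelial marker sums given above were lower in cKO hepatocytes than in WT hepatocytes, and the hepatocyte marker sum was higher.

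The genotype difference of C8a differed between hepatocytes and male liver. The contrast was formed inside each table, and the single hepatocyte libraries were assumed to vary like the male livers. C8a gave a hepatocyte minus male liver difference of 8.11 on the log2 scale (SE 0.64, limma adjusted p = 0.00602), and was the 1 component past the threshold, where 3.72% of the 10759 genes were called, 1.94% with a positive difference and 1.78% with a negative one. Mbl2 (3.09), C9 (3.40), C8b (2.99), Hc (2.56) and C6 (2.94) followed, with limma adjusted p of 0.0512, 0.0503, 0.0507, 0.0507 and 0.0602 in that order, just above the threshold. All 6 of these passed when genes needed a mean of 5 FPKM, where 636 of 6140 genes were called. They also passed in estimated fragments, where 1540 of 10990 genes were called, and with the replicate block, where 788 of 10759 were. Median-ratio scaling called all of them but C6, and 523 of 10711 genes. Only C8a passed with a pseudocount of 0.1 or 5 FPKM, with no filter, or with the mitochondrial genes left out. C3, C4b and Cfb had differences of 0.94, 1.38 and 1.01, and their limma adjusted p lay between 0.26 and 0.354. With cKO replicate 2, cKO replicate 3, WT replicate 2 or WT replicate 3 left out, 0 of the 9 passed in limma, with 6, 7, 6 and 6 at an unadjusted p under 0.05, against 24.3%, 26.8%, 13.3% and 14.2% of all genes, of which 0 were called. C8a had an adjusted p between 0.1 and 0.252.

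In female liver the terminal components again had lower FPKM in cKO than in WT, as did the early components Mbl2 and C3. C4b and Cfb did not, so the female table did not separate terminal from early components. With 1 library a genotype there is no test, and the direction rests on the title of the WT library. C8a was at 16.0 FPKM in cKO and 194 FPKM in WT, and C9 at 47.8 FPKM in cKO and 372 FPKM in WT. Mbl2 was at 52.5 FPKM in cKO and 296 FPKM in WT, and Hc at 104 FPKM in cKO and 372 FPKM in WT. C8b was at 58.5 FPKM in cKO and 90.2 FPKM in WT, and C6 at 6.05 FPKM in cKO and 8.72 FPKM in WT, its lowest WT level of the 3 tables. Of the 9 components 5 were at least 2-fold lower on the log2(FPKM + 1) scale, against 11.3% of all genes, and 0 were at least 2-fold higher, against 36.8% of all genes. The 5 were C8a, C9, Hc, C3 and Mbl2, so the terminal components C8b (-0.62) and C6 (-0.46) were not among them. By scaled fragments the log2 difference of Hc was -1.18 in place of -1.83, and that of C3 was -0.05.

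The early components in female liver went both ways, with Mbl2 and C3 lower in cKO and C4b and Cfb higher. C4b was at 587 FPKM in cKO and 334 FPKM in WT, and Cfb at 614 FPKM in cKO and 512 FPKM in WT. The difference of C4b was 0.81 on the log2 scale, and 0.10 with median-ratio scaling and 0.34 without the mitochondrial genes. The direction of Cfb turned to -0.45 on the log2 scale with median-ratio scaling and to -0.21 without the mitochondrial genes. C3 was at 1121 FPKM in cKO and 2363 FPKM in WT, but at 86506 scaled fragments in cKO and 89343 in WT, where 1 FPKM of C3 stood for 2.04 times as many fragments in the cKO library. By fragments its log2 difference was -0.05 in place of -1.07.

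No component passed the test of a different genotype effect between female and male liver. The single female libraries were assumed to vary like the male livers. Sex, library kit and table go together here, so a difference cannot be assigned to sex. Over all 11281 genes 0.0621% were called by limma, 0.0443% with a positive and 0.0177% with a negative difference, and 0 of the 9 components were, although 3 of the 9 components had an unadjusted p under 0.05, against 7.67% of all genes. These were C8a (3.01 on the log2 scale, limma adjusted p = 0.603), C6 (2.38, limma adjusted p = 0.636) and C8b (1.70, limma adjusted p = 0.648), all of which had smaller negative differences in female liver. A p that misses the threshold does not show that the female and male tables were alike, and the female values rest on the title of a library whose tag reads cKO.

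**Figure D3:**
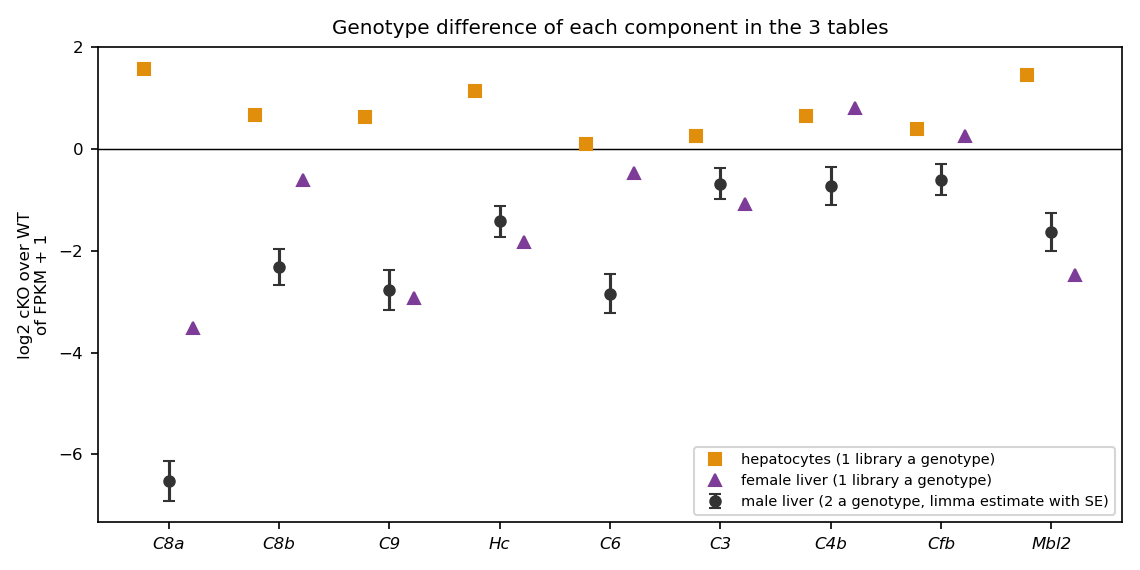
Log2 ratio of cKO over WT on the FPKM + 1 scale for each component in hepatocytes (squares, 1 library a genotype), male liver (circles, limma estimate with SE, 2 libraries a genotype) and female liver (triangles, 1 library a genotype). C8a spans the widest range, at 1.58, -6.53 and -3.52, and C4b and Cfb lie above 0 in female liver.

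Other complement genes did not move as a block in male liver. Over all genes tested there, 5.18% passed in limma and 25.3% had an unadjusted p under 0.05. Of the 12 tested of 14 further initiators of the classical and lectin routes, 0 passed in limma, with 5 at an unadjusted p under 0.05. Of these 12, 5 had both cKO libraries higher and 3 had both lower, where 44.8% and 11.7% of all genes did. C1qb, a chain of C1q, was at 88.1 and 126 FPKM in male cKO livers, against 29.5 and 38.9 FPKM in male WT livers (limma adjusted p = 0.0526). C1qa, C1qb and C1qc are also among the macrophage markers summed above. Mbl1, of the same list, went the other way. It was at 30.2 and 40.1 FPKM in male cKO livers, against 99.9 and 94.4 FPKM in male WT livers (limma adjusted p = 0.0551). C1qb and C1qc had the largest hepatocyte differences of these lists, with C1qb at 1.29 FPKM in cKO and 83.9 FPKM in WT hepatocytes and C1qc at 0.766 FPKM in cKO and 68.7 FPKM in WT hepatocytes. Of 3 tested alternative and terminal proteins outside the 9, of 3 membrane regulators and of 7 receptors, 0 passed in limma, with 1, 0 and 3 at an unadjusted p under 0.05 in that order, and 5 of the 7 receptors had both cKO libraries higher, against 44.8% of all genes.

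Regulators in plasma went both ways. Of 8 fluid-phase regulators tested, 7 had both cKO libraries lower than both WT libraries, against 11.7% of all genes. Serping1, the C1 inhibitor, was at 144 and 171 FPKM in cKO livers, against 533 and 549 FPKM in WT livers (log2 difference -1.78, limma adjusted p = 0.0273). Clu, which blocks insertion of the terminal complex, was at 3834 and 3279 FPKM in cKO livers, against 820 and 920 FPKM in WT livers (log2 difference 2.03, limma adjusted p = 0.0193). Clu was also at 3666 FPKM in female cKO liver and 247 FPKM in female WT liver, the largest female difference of these lists.

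Genes used for comparison showed both directions too. Of 10 acute phase genes, 3 were called lower in male cKO liver and 1 higher, against 1.5% and 3.68% of all genes. Crp was at 13.7 and 12.4 FPKM in cKO livers, against 183 and 128 FPKM in WT livers (log2 difference -3.45, limma adjusted p = 0.00732), and at 6.78 FPKM in female cKO liver and 94.0 FPKM in female WT liver. Orm1 (log2 difference -1.47, limma adjusted p = 0.0436) and Saa1 (-5.63, limma adjusted p = 0.0193) were the others called lower. Saa1 was listed at 0 and 2.79 FPKM in cKO livers and at 194 and 46.6 FPKM in WT livers, so its estimate depends on the pseudocount. Lcn2, an iron-binding acute phase protein, was at 147 and 197 FPKM in cKO livers, against 21.8 and 18.8 FPKM in WT livers (log2 difference 3.01, limma adjusted p = 0.0103). Of 10 regulators of complement transcription in liver, among them Hnf4a and Cebpa, 0 passed in limma. Only 1, namely Cebpa, had an unadjusted p under 0.05, against 25.3% of all genes. Cebpa was at 28.2 and 28.2 FPKM in cKO livers, against 48.6 and 80.6 FPKM in WT livers (limma adjusted p = 0.128), and Hnf4a was at 76.9 and 78.6 FPKM in cKO livers, against 87.8 and 93.3 FPKM in WT livers (limma adjusted p = 0.705).

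The genes whose pattern was most like each component were found over the 8 libraries, after each table was centred, among 6551 genes with a mean of 5 FPKM or more. The measure was Pearson's r of log2(FPKM + 1), given as a description since the libraries share genotype, depth and table. They were Mup3 for C8a (r = 0.993), Nxpe2 for C8b (0.992), Cyp2c44 for C9 (0.991), Cml2 for Hc (0.999), Mup17 for C6 (0.974), 3110043O21Rik for C3 (0.997), Jmjd8 for C4b (0.991), Osbpl1a for Cfb (0.99) and Amy1 for Mbl2 (0.999). Mup3 and Mup17 belong to a family of near-identical genes and may share reads with their copies. Among the components themselves, Hc and Mbl2 were most alike (0.977), as were C3 and Mbl2 (0.976), and C9 and C4b least (0.178).

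The upstream sequence of C3 is shown because C3 was the most abundant component and one of those with the smallest differences in male liver. It is the 250 bases before the RefSeq start on GRCm38.p6, 5′ to 3′ on the minus strand, at chr17:57228137-57228386. Capitals mark TTGCNNAA, a word bound by C/EBP factors, on either strand.
C3 promoter: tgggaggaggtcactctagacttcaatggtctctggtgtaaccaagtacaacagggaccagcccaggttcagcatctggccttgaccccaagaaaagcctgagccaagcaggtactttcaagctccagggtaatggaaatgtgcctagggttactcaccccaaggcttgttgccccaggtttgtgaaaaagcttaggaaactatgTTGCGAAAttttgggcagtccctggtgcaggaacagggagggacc
TTGCNNAA was found before C9 and C3, among the 7 components with an entry, and in 9.56% of 32851 promoter entries. A match is a description of the letters and not a bound site.

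In the m6A peak lists of hepatocytes, the components held 21 peaks in the cKO library and 56 in the WT library. That was 0.122% of the 17277 cKO peaks and 0.326% of the 17175 WT peaks. The cKO peaks lay in 6 of the 9 genes, none of them in C4b, Cfb or Mbl2, and the WT peaks lay in all 9. By gene, cKO and WT hepatocytes had 3 and 7 peaks in C8a, 3 and 4 in C8b, 3 and 8 in C9, 4 and 13 in Hc, 4 and 10 in C3, and 0 and 7 in C4b, 0 and 1 in Cfb and 0 and 4 in Mbl2. C6 was the exception, with 4 peaks in cKO and 2 in WT hepatocytes. Each genotype had 1 IP library, so these counts have no test.

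The peaks of cKO hepatocytes mostly had a counterpart in WT hepatocytes. Of the 21 cKO peaks 15 (71.4%) overlapped a WT peak by at least 1 bp, and 15 of the 56 WT peaks (26.8%) overlapped a cKO peak. Over all genes the shares were 35.3% of cKO peaks and 35.5% of WT peaks. With a fold enrichment of at least 10, cKO hepatocytes kept 6 component peaks (28.6%) and WT hepatocytes 26 (46.4%), against 70.1% of all cKO peaks and 85.6% of all WT peaks. The median fold of the component peaks was 7.13 in cKO and 9.34 in WT hepatocytes, below the medians of all peaks, 14.95 in cKO and 28.54 in WT. At a false discovery rate of at most 5% as listed, cKO hepatocytes kept 0 and WT hepatocytes 52 (92.9%), against 0.0232% of all cKO peaks and 96.9% of all WT peaks, so this limit separates the lists and not the components. The lists differ in that rate, which ran up to 25.92% in the cKO list and 7.52% in the WT list.

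The hepatocyte IP lists also differed in the markers of other cells. Of 41 genes in the non-parenchymal marker lists, 33 had a peak in cKO hepatocytes and 10 in WT hepatocytes, whereas the cKO input held less RNA of these genes. Of 10 hepatocyte markers, 4 had a peak in cKO and 9 in WT. The components, C6 excepted, had fewer peaks in cKO hepatocytes with higher input FPKM there. For the hepatocyte markers the number of genes with a peak was lower in cKO and the input sum higher, and their peaks were not counted. Fold enrichment is set against input, and whether the input levels or the cell makeup bear on the peak counts was not tested. Whether an input or IP library of hepatocytes carries the label of the other genotype was not tested either, and each hepatocyte direction given here, of FPKM and of peaks, rests on those labels.

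**Figure D4:**
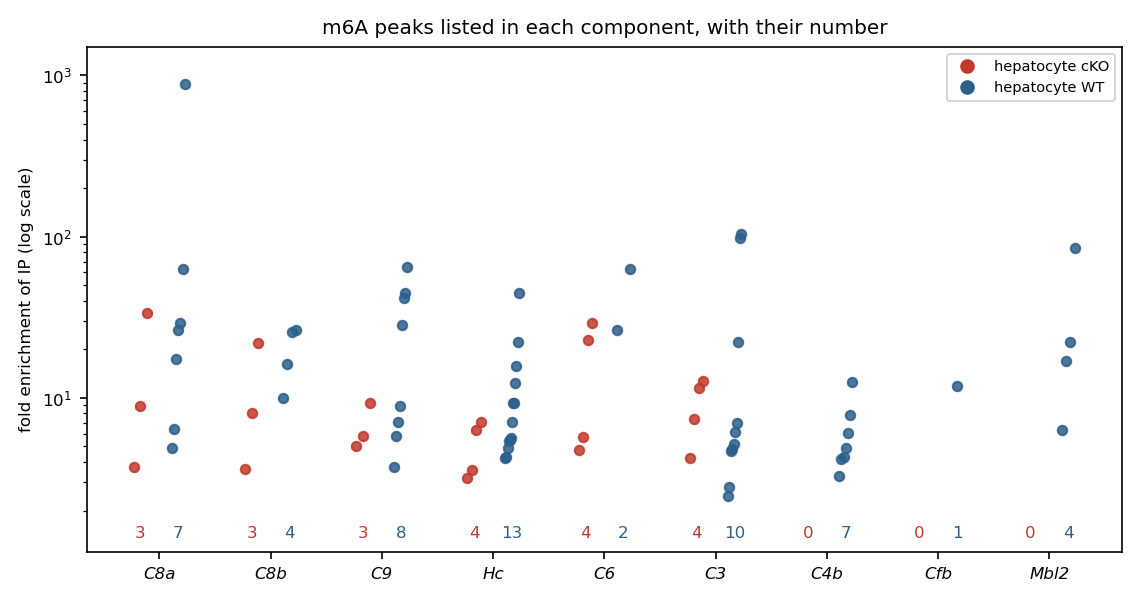
Fold enrichment of IP over input (log scale) of every listed m6A peak of each component in the hepatocyte IP libraries, cKO in red and WT in blue, 1 point a peak, with the number of peaks written at the foot. WT points are more numerous for 8 of the 9 components, and the highest is the C8a peak at 888.

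The most recurrent peak of the 9 genes lay in C3. The peak over exon 28 of 41 was listed in all 6 IP libraries, at a fold enrichment of 12.66 in cKO and 103.48 in WT hepatocytes, and of 110.58 and 179.1 in male cKO livers and 146.4 and 47.9 in male WT livers. In male liver the genotypes overlapped. The peak over exon 30 was listed in 5 of the 6 libraries, at 11.59 in cKO and 98.61 in WT hepatocytes, at 35.73 and 20.08 in male cKO livers and at 41.08 in male WT replicate 2. Both lie in the coding sequence on the minus strand of chromosome 17.

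In C8a the peak over coding exon 7 of 11 had a fold enrichment of 8.95 in cKO and 63.32 in WT hepatocytes, and of 378 in male WT replicate 2. It was listed in none of the other male livers. The widest difference in enrichment was in the 3′ untranslated part of C8a, at 33.82 in cKO hepatocytes and 888 in WT hepatocytes. That stretch also had listed peaks in both male cKO livers, at up to 8.47 in replicate 2 and at 2.89 in replicate 3, and none in male WT livers. The male cKO inputs held only 24 and 17 scaled fragments over the whole of C8a, so these enrichments rest on very little input. All male liver lists give a false discovery rate of 52.63% or more for every peak, of the components and of other genes. The liver lists as a whole are thus weakly supported, and this rate does not set the component peaks apart.

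The overlapping peaks of the other components mostly had a lower fold enrichment in cKO than in WT hepatocytes. The exceptions were the 3′ untranslated peak of C9, at 5.0 in cKO and 3.72 in WT, and the exon 6 peak of Hc, at 6.33 in cKO and 5.64 in WT. The Hc exon 6 peak was listed over 70 bases in cKO and only 5 bases in WT hepatocytes. In C9 the exon 4 peak was at 9.28 in cKO and 44.57 in WT hepatocytes and at 5.3 in male cKO replicate 3, and the exon 10 peak was at 5.78 in cKO and 41.34 in WT hepatocytes. In Hc the exon 8 peak was at 3.17 in cKO and 44.63 in WT hepatocytes. In C6 the exon 11 peak was at 22.87 in cKO and 62.82 in WT hepatocytes. In C8b the exon 6 peak was at 8.05 in cKO and 26.42 in WT hepatocytes. In Mbl2 the exon 4 peak (16.81) and the exon 6 peak (84.67) were listed in WT hepatocytes and not in cKO hepatocytes.

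The sequences shown lie under 5 of the coding peaks named above, the recurrent C3 peaks and 1 peak each in C8a, C9 and Mbl2. They were read from GRCm38 (mm10) on the gene's strand, 5′ to 3′, with GGAC in capitals. The positions are chr17:57212605-57212761 and chr17:57210165-57210323 for C3, chr4:104845895-104846135 for C8a, chr15:6459525-6459672 for C9 and chr19:30234931-30235047 for Mbl2. Of the 97 component peaks listed, 92 begin at an annotated exon start, so a peak marks an exon and not a site within it.
C3 exon 28: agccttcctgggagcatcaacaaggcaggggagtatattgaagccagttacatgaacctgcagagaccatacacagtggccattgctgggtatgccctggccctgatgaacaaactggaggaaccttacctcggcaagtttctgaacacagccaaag
C3 exon 30: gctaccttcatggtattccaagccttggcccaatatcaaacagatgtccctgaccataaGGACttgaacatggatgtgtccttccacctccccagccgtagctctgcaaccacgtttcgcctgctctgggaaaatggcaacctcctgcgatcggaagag
C8a exon 7: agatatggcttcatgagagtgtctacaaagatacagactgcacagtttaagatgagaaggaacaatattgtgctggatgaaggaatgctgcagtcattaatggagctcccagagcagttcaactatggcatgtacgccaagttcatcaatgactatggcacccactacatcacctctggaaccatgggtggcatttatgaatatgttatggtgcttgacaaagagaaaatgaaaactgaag
C9 exon 4: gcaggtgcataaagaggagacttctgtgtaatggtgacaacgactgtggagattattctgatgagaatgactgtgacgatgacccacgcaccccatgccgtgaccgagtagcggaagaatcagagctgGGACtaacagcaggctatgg
Mbl2 exon 4: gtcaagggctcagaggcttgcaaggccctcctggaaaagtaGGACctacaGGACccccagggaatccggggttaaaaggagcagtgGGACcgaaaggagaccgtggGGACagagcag
The C3 exon 28 sequence, present in all 6 lists, holds 0 GGAC words, as does that of C8a exon 7. The Mbl2 exon 4 sequence holds 4 in 117 bases, and those of C3 exon 30 and C9 exon 4 hold 1 each. Of the named coding peaks not shown, those over C9 exon 10, Mbl2 exon 6, C8b exon 6 and Hc exon 6 hold 0. Those over Hc exon 8 and C6 exon 11 hold 1 each.

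The 3′ untranslated peak of C8a in WT hepatocytes holds 5 GGAC words in 1225 bases, and the overlapping cKO peak holds 5 in 1329 bases. The words of the WT peak are shown with the bases around them because that peak had the highest enrichment of any component. In transcript order they lie at chr4:104816786-104816805, chr4:104816715-104816734, chr4:104815991-104816010, chr4:104815912-104815931 and chr4:104815827-104815846.
C8a word 1: tggttgctGGACaagcagac
C8a word 2: ctgtaggtGGACttggaagg
C8a word 3: ctgagggaGGACaagtcaga
C8a word 4: acctggatGGACtttttaac
C8a word 5: gaacgtggGGACtgggaaaa
Among component peaks of 100 to 260 bases, 8 of 16 in cKO hepatocytes and 21 of 42 in WT hepatocytes held GGAC (50.0% of each), against 55.9% of 6381 cKO peaks and 57.8% of 6238 WT peaks of that length over all genes.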

How the data were processed

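Adapters were removed by the authors with cutadapt 1.9.3, and HISAT2 2.0.4 placed the reads on mm10, per the submitters' processing notes. The deposited FPKM values came from the authors' Cufflinks and Cuffdiff, in versions the sources used here do not name. FPKM rests on an estimated mix of isoform lengths, so scaled fragments are given where the scales differ. The deposited count columns are a signal scaled by the authors per library, and 93.4% to 95.7% of low values were whole multiples of 1 step within 0.02 steps. These columns were used for depth and as an alternative, and no count model was fitted. MACS was run by the authors on each library, and peaks that overlapped exons were kept. Fold enrichment is the authors' ratio of IP over input, the deposited score is a multiple of the -log10 p-value, and the deposited false discovery rate is in percent. The authors' own comparisons between genotypes were not used. No depth was found for the IP libraries.

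On log2(FPKM + 1), male liver was tested two-sided with limma 3.58.1 in R 4.3.3, whose variance moderation followed the mean level, for genes averaging 1 FPKM or more, with Benjamini-Hochberg adjustment over all genes and a threshold of 0.05. Scripts were tested on simulated data. Fold changes on this scale understate those of low genes. Differences between tables were tested as interaction contrasts formed inside each table. Hepatocytes and female liver have 1 library a genotype. Alternatives were the pseudocount, the filter, the scaling, each male library left out, a replicate block, the female table added, and stricter peak lists and overlaps. Peak starts count from 0 in the lists and are given from 1. Peaks were placed on the transcript with the longest coding sequence in GENCODE M21 (GRCm38), and sequence was read with pysam 0.24.0. Promoter sequences are from RefSeq (GRCm38.p6), which matched 7 of the 9 components.

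The 9 components, the other gene lists and the tests were chosen with earlier results of these data known. Named were all 9 components, Mettl3, genes of the other complement and comparator lists that passed in male liver or had the largest or second largest difference in hepatocytes or female liver at 5 FPKM or more, and the gene most like each component. Cell type markers are given as sums. C8g, Mbl1, Cebpa and Hnf4a were named after their values were seen. Some results on genes the rule names are not reported here.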

Additional observations from a re-analysis of the deposited data

Results flagged for a closer look

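The genotype difference of C8a differed between hepatocytes and male liver, by 8.11 on the log2 scale (SE 0.64, limma adjusted p = 0.00602). C8a was at 95.6 FPKM in cKO and 31.2 FPKM in WT hepatocytes, and at 1.69 and 0.854 FPKM in cKO and 240 and 175 FPKM in WT male livers. The hepatocyte side rests on the labels of 1 library a genotype, whose macrophage markers summed to 16.5 FPKM in cKO and 653 FPKM in WT hepatocytes. Non-parenchymal markers had more peaks in the cKO than in the WT IP of hepatocytes (33 and 10 of 41 genes), the other way from the inputs. Whether a label is exchanged was not tested, and the opposite direction of C8a in hepatocytes would turn if the input labels were.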

How the results depend on the processing

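The 5 components called lower in male liver became 1 with no filter and 0 whenever 1 library was left out (range 0 to 0), and were 4 to 6 under the other alternatives. The direction of all 9 stayed negative under every alternative of that fit. The calls among all genes, 567, became 11 with no filter, 1840 with the female livers added, 1472 with estimated fragments, and 0 to 2 without 1 library. The replicate block, fitted although same-numbered livers share only a number (correlation of deviations 0.126, 2 numbers, no shared litter or batch in the labels), gave 1074. For the hepatocyte minus male liver difference, the 1 component called became 6 with a mean of at least 5 FPKM, 6 with estimated fragments, 5 with median-ratio scaling, 6 with the replicate block and 0 to 0 without 1 library. For the female minus male liver difference, 0 components passed in every setting run, the replicate block included. Over all genes, the 400 calls of the hepatocyte minus male liver difference ran between 181 and 1540 under the other alternatives and were 0 without any 1 library, and the 7 of the female minus male liver difference became 437 with no filter. The causes were not tested.

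Without mitochondrial genes in the total, the hepatocyte median of the 9 turned to -0.19, and C8b (-0.15), C9 (-0.20), C6 (-0.72), C3 (-0.58), C4b (-0.19) and Cfb (-0.44) turned negative. Median-ratio scaling turned C6 (-0.27) and C3 (-0.11) negative in hepatocytes and moved the female median to -1.79. Cfb in female liver turned to -0.45 with median-ratio scaling and -0.21 without mitochondrial genes. At a fold enrichment of at least 10, the component peaks numbered 6 in cKO and 26 in WT hepatocytes and 2 and 3 in male cKO livers, with 5 and 1 in male WT livers. At a false discovery rate of at most 5% they numbered 0 in cKO and 52 in WT hepatocytes and 0 in each male liver list. Requiring a longer overlap left 15 shared peaks. Estimated fragments were chosen as an alternative after seeing the data. Depth limits C8a in male cKO liver, at 24 and 17 scaled fragments.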
